A study of Mus musculus with 18 samples.

Results

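Runx1, Nrip1 and Zbtb20 encode 3 transcription regulators that lie on mouse chromosome 16. They were taken as the 3 rows of the deposited count table that carry these symbols, of 40620 rows in all, and were followed in 15 of the 18 libraries of the series. The cells were MC3T3-E1, mouse preosteoblasts established from newborn calvaria, and each population of them carried a short hairpin RNA construct: shScramble, the control, or shRcor2-18 or shRcor2-20, both aimed at Rcor2, a corepressor of the CoREST family. The series asked what loss of Rcor2 does while these cells differentiate towards osteoblasts. The titles give 2 samples for each construct at 0h, 24h and 7d. Cells labelled WT in genotype are those with shScramble, and the others are labelled RCOR2 knockdown. No library without a hairpin was included, and the labels do not say whether a construct's cells were a pool or a clone. Osteogenic medium was growth medium with 10 nM dexamethasone, 50 µg/ml ascorbic acid and 5 mM beta-glycerophosphate, so the 0h libraries differ from the later ones in both time and medium, which cannot be told apart. The protocols name harvests at 24 hours and then at day 14 and day 21 but none at day 7, and the times are given here as in the titles.

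RUNX1 binds DNA through its Runt domain together with the partner CBFB, is best known as a regulator of blood formation, and is also made in skeletal progenitors, where its relative RUNX2 drives osteoblast formation. NRIP1, also called RIP140, does not bind DNA itself but is recruited by ligand-bound nuclear receptors, where it mostly lowers transcription with the help of CTBP proteins and histone deacetylases. ZBTB20 is a zinc finger repressor with a BTB domain that silences alpha-fetoprotein in the liver after birth and takes part in the maturation of cartilage cells.

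Each gene is represented by 1 row, so reads from all its start sites were summed. RefSeq gives Runx1 a distal and a proximal start, and the 250 bases before each are shown here because the count of the gene does not tell which of them was used. The Zbtb20 window is shown because it held 2 of the motifs searched for. Positions refer to GRCm38.p6, and sequences read 5′ to 3′ on the strand of the gene. The distal Runx1 window is chr16:92826075-92826324 on the minus strand, the proximal one is chr16:92697330-92697579 on the minus strand, and that of Zbtb20 is chr16:43247034-43247283 on the plus strand. Capitals mark matches to the motifs.
Runx1 distal: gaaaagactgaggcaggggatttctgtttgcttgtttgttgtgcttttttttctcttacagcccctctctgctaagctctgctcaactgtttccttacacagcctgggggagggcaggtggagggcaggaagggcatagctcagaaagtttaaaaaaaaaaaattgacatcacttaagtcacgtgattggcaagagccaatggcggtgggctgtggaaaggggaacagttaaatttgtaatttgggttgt
Runx1 proximal: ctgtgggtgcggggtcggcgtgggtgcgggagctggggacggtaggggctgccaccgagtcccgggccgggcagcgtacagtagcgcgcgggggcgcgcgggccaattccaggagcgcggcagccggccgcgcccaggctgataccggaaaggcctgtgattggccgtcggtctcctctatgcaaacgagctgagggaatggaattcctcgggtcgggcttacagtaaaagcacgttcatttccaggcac
Zbtb20: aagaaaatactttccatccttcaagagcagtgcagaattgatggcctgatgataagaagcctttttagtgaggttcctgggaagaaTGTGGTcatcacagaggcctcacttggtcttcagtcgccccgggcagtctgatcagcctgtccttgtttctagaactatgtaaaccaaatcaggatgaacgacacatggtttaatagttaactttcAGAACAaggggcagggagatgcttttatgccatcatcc

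The windows of Runx1 differed in composition. The distal one held 2 CpG dinucleotides at 45.6% GC, and the proximal one held 27 at 67.6% GC. The median GC content of the 32851 promoters in the RefSeq table was 52.4%. The window of Zbtb20 had 3 CpG dinucleotides and 44.8% GC. Both strands were searched for TGTGGT, a Runt-type site, AGAACA, a half-site of the glucocorticoid receptor, TGANTCA, an AP-1 site, and GGGCGG, a GC box. These were present in 14.0%, 16.1%, 6.75% and 32.7% of all windows of that length. Zbtb20 held TGTGGT from position -164 and AGAACA from position -38, counted from the start site. Neither window of Runx1 held any of the 4 motifs. The CpG-rich window of Nrip1 held overlapping GGGCGG matches from positions -38 and -34, and its other window held none of the 4 motifs. These matches are descriptions of letters and not evidence of binding.

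Most rows of the table were not read here as the genes they name, because many genes that all cells use held almost no counts. Rows of chromosome 16 from Mefv to Cbr3 were: in that stretch of 610 protein-coding rows, 19 of 20 genes of broadly expressed families (ribosome, proteasome, respiratory chain and similar) reached 20 CPM (read counts scaled to the size of the library), against 90 of 457 elsewhere. Runx1 lies 4 coding rows before the end of the stretch, Nrip1 104 and Zbtb20 238, so the name of Runx1 is the least secure of the 3. Its neighbours Clic6, a chloride channel of epithelia, and Rcan1, a calcineurin inhibitor, averaged 0 and 87.0 CPM. On the side where the stretch ends, Setd4, Cbr1, Gm5678 and Cbr3 averaged 6.64, 19.6, 2.36 and 47.1 CPM. None of the family genes lies between Runx1 and that end, so their check does not cover it. A shift of less than a gene would not be seen. The stretch was chosen with earlier results of these data known, so the check does not secure its names. Some rows in it named for genes of other cell types held counts. Trp63, a factor of epithelia, averaged 228, 329 and 420 CPM at 0h, 24h and 7d, and Cd80, an immune ligand, 187 CPM. Others, such as Cldn5 and Olig2, held 0. What these levels mean for the names was not tested. The row of Rcor2 lies outside any such stretch, so the knockdown itself could not be checked. Library totals ran from 3504808 to 6139315 counts in the 15 libraries used. Sample 1 of each construct at 0h was left out because these 3 libraries stood apart from the rest: they correlated with the others at 0.745 to 0.771, against 0.871 to 0.927 among the others. Nothing in the labels says that samples were separate cultures, so the p-values measure the spread between samples, which may be technical.

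Runx1 (ENSMUSG00000022952) fell over the time course. At 0h its level was 128 CPM with shScramble, 148 CPM with shRcor2-18 and 132 CPM with shRcor2-20, 1 library each (136 ± 11 CPM, SD, n = 3). At 24h, samples 1 and 2 held 61.4 and 83.2 CPM with shScramble, 60.0 and 89.5 CPM with shRcor2-18, and 80.7 and 84.1 CPM with shRcor2-20 (76.5 ± 12.6 CPM, SD, n = 6). At 7d they held 31.5 and 57.1 CPM with shScramble, 34.5 and 47.6 CPM with shRcor2-18, and 62.2 and 51.9 CPM with shRcor2-20 (47.5 ± 12.3 CPM, SD, n = 6). All 6 libraries at 24h and all 6 at 7d lay below all 3 at 0h, and 5 of 6 at 7d lay below all 6 at 24h. How many other rows separated in these ways was not counted. The 3 libraries at 0h were all sample 2, whereas the later times hold both samples, so time and sample number are partly mixed. CPM of the 3 genes, correlated genes and listed regulators are scaled by the TMM factors of the 15 libraries. Those of family genes, neighbours, overlapping rows and markers are scaled by library totals alone. CPM are not corrected for gene length, so they compare a gene between libraries and not genes with each other. In bulk RNA, fewer cells with the transcript and less of it per cell cannot be told apart.

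**Figure D1:**
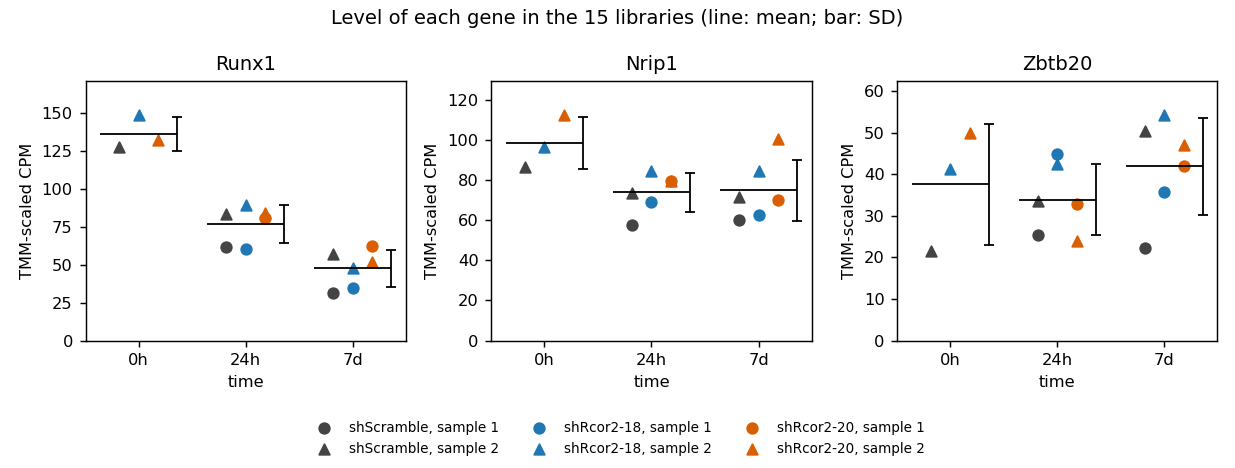
Levels of Runx1, Nrip1 and Zbtb20 (TMM-scaled CPM, vertical axes from 0) at 0h, 24h and 7d (horizontal axes) in 15 libraries, with colour for the construct, shape for the sample number, and lines and bars for the mean and SD of all libraries of a time. Runx1 runs from 128 to 148 CPM at 0h and from 31.5 to 62.2 CPM at 7d, while Zbtb20 spans 21.6 to 50.0 CPM at 0h alone.

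From 0h to 7d, Runx1 changed by -1.53 ± 0.22 (log2, SE), which is 2.89-fold lower (edgeR quasi-likelihood test, Benjamini-Hochberg adjusted p = 0.00684). In that comparison 5.76% of the 12930 rows tested passed an adjusted p of 0.05, 423 higher and 322 lower, and 432 in all with the replicate block. Of the 373 genes of the chromosome 16 stretch that were tested, 23 were called higher and 19 lower, with a median change of 0.06. Runx1 ranked 11 from the lowest among them. The change was -1.53 ± 0.38 with shScramble, -1.85 ± 0.38 with shRcor2-18 and -1.21 ± 0.38 with shRcor2-20. With 1 library at 0h for each construct, none of the 3 passed the test alone (edgeR adjusted p = 0.138, 0.12 and 0.343). In the fit of the chromosome 16 stretch alone all 3 passed (edgeR adjusted p = 0.00876, 0.00701 and 0.0360). DESeq2 and all 18 libraries with a term for sample 1 at 0h called shScramble and shRcor2-18, and a fit without a filter on low counts called shRcor2-18.

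Both steps of the course went the same way, and neither passed the adjusted threshold alone. From 0h to 24h Runx1 changed by -0.83 ± 0.22 (log2, SE; edgeR adjusted p = 0.147), in a comparison where 1.86% of rows were called, 190 higher and 50 lower, and 56 rows with the replicate block. From 24h to 7d it changed by -0.70 ± 0.19 (edgeR adjusted p = 0.0935), where 2.34% of rows were called, 149 higher and 153 lower, and 169 rows with the replicate block. Between libraries of the same construct and number, Runx1 was lower at 7d than at 24h in 6 of 6 cases, by log2 changes of -0.96 to -0.38. The edgeR adjusted p fell to 0.0131 for the first step and 0.00789 for the second when only the chromosome 16 stretch was fitted. DESeq2 gave adjusted p-values of 0.0259 and 0.0190, and for the second step a block for the library pairs described further on gave 0.0173 (edgeR). Of the alternative settings, 22 of 25 for the first step and 23 of 26 for the second did not pass. The replicate block gave adjusted p-values of 0.133 and 0.0501 (edgeR). All 18 libraries gave 0.0360 for the first step, which passed, and 0.556 for the second (edgeR). Comparisons with 0h share the same 3 libraries.

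Nrip1 (ENSMUSG00000048490) was highest at 0h, where it held 86.5 CPM with shScramble, 96.5 CPM with shRcor2-18 and 112 CPM with shRcor2-20 (98.4 ± 13.1 CPM, SD, n = 3). At 24h, samples 1 and 2 held 57.6 and 73.7 CPM with shScramble, 68.8 and 84.4 CPM with shRcor2-18, and 79.5 CPM in both with shRcor2-20 (73.9 ± 9.63 CPM, SD, n = 6). At 7d they held 60.2 and 71.4 CPM with shScramble, 62.3 and 84.3 CPM with shRcor2-18, and 70.2 and 100.3 CPM with shRcor2-20 (74.8 ± 15.1 CPM, SD, n = 6). All 6 libraries at 24h lay below the 3 at 0h, and 5 of 6 at 7d did so, the exception being shRcor2-20 sample 2. Here too the libraries at 0h were all sample 2. How many of the 12930 rows tested separated in this way was not counted. At 24h against 0h, 1481 of them had an unadjusted p under 0.05 (edgeR). The log2 change of Nrip1 was -0.41 ± 0.17 (SE) at 24h and -0.40 ± 0.17 at 7d, and neither passed the test (edgeR adjusted p = 0.393 and 0.224, unadjusted p = 0.0371 and 0.0425). Between 24h and 7d the difference was 0.01 ± 0.14 (edgeR adjusted p = 1.00), with 4 of 6 same-number cases lower at 7d. By construct, the 7d against 0h values were alike in size, at -0.39 ± 0.29, -0.40 ± 0.29 and -0.40 ± 0.29 for shScramble, shRcor2-18 and shRcor2-20.

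Zbtb20 (ENSMUSG00000022708) varied more between libraries of a time than between times. At 0h it held 21.6 CPM with shScramble, 41.3 CPM with shRcor2-18 and 50.0 CPM with shRcor2-20 (37.6 ± 14.6 CPM, SD, n = 3). At 24h, samples 1 and 2 held 25.4 and 33.5 CPM with shScramble, 44.9 and 42.4 CPM with shRcor2-18, and 32.8 and 24.0 CPM with shRcor2-20 (33.8 ± 8.54 CPM, SD, n = 6). At 7d they held 22.3 and 50.3 CPM with shScramble, 35.7 and 54.3 CPM with shRcor2-18, and 41.9 and 47.0 CPM with shRcor2-20 (41.9 ± 11.6 CPM, SD, n = 6). The ranges of all 3 times overlapped. The log2 differences were -0.10 ± 0.27 (SE) at 24h and 0.23 ± 0.27 at 7d against 0h, and 0.33 ± 0.22 between 24h and 7d (edgeR adjusted p = 0.998, 0.715 and 0.501). The lowest of the 15 libraries held 85 counts of Zbtb20, for which counting error alone is 10.8%. The corresponding lowest counts were 120 for Runx1 and 229 for Nrip1, with errors of 9.13% and 6.61%. These counting errors are smaller than the spread of Zbtb20 within a time.

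**Figure D2:**
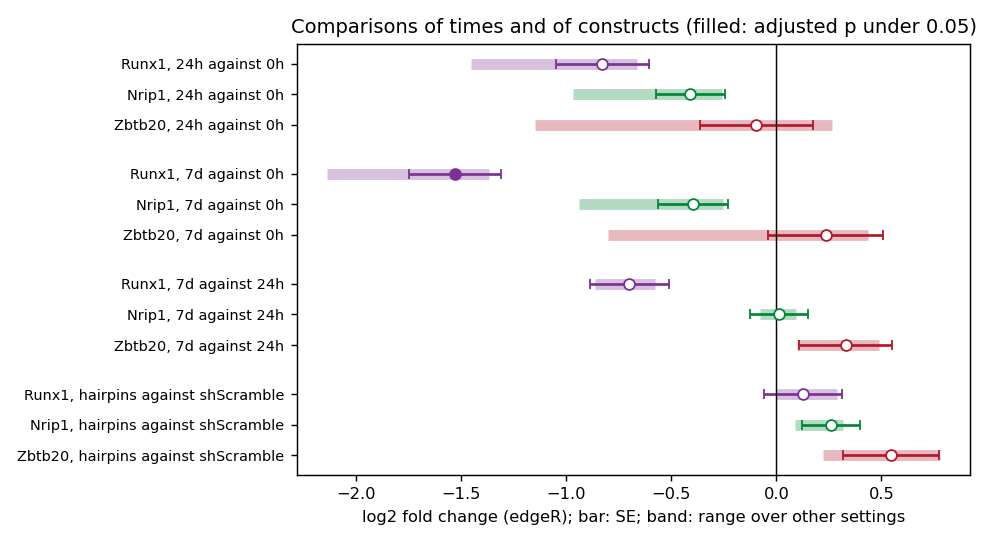
Log2 fold changes (horizontal axis) of the 3 genes between times and between both hairpins and shScramble, with SE as bars, the range over other settings as pale bands, and filled points where the edgeR adjusted p was under 0.05. Runx1 at 7d against 0h, at -1.53, is the 1 filled point of the 12.

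The order of the 9 groups differed between the genes. For Runx1 the 3 groups at 0h stood above all groups at 24h, and these stood above all groups at 7d in their means, from 148 CPM (shRcor2-18, 0h) down to 41.0 CPM (shRcor2-18, 7d). Each neighbouring pair of groups from 24h onwards overlapped. For Nrip1 the 3 groups at 0h led the order, from 112 CPM (shRcor2-20) to 86.5 CPM (shScramble), and the lowest were both later shScramble groups, at 65.8 CPM at 7d and 65.6 CPM at 24h. The Nrip1 groups from shScramble at 0h downwards each overlapped the next. For Zbtb20 the highest group was shRcor2-20 at 0h, at 50.0 CPM, and the lowest was shScramble at 0h, at 21.6 CPM, so that 1 time held both ends of the order.

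Neither Rcor2 hairpin was told apart from shScramble by any of the 3 genes after adjustment over all rows. Runx1 averaged 72.2 CPM over the 5 shScramble libraries and 79.1 CPM over the 10 hairpin libraries, with a log2 difference of 0.13 ± 0.19 (SE; 95% interval -0.30 to 0.56; edgeR adjusted p = 0.991). Nrip1 averaged 69.9 and 83.8 CPM, with a difference of 0.26 ± 0.14 (95% interval -0.06 to 0.58; edgeR adjusted p = 0.793). Zbtb20 averaged 30.6 and 41.4 CPM, with a difference of 0.54 ± 0.23 (95% interval 0.02 to 1.07; edgeR adjusted p = 0.766). In this comparison 0.00773% of rows, a single row, were called, and none with the replicate block, while 839 rows had an unadjusted p under 0.05. The 95% intervals leave room for a rise of Runx1 or Nrip1 of up to 0.56 or 0.58 on the log2 scale. The interval of Zbtb20, not adjusted for the number of rows, lies just above 0 and reaches 1.07.

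The Zbtb20 difference moved with single shScramble libraries. At 0h, where shScramble had 1 library at 21.6 CPM, it was 1.08 ± 0.49 (log2, SE). At 24h and 7d it was 0.26 ± 0.33 and 0.30 ± 0.34. Without shScramble 0h sample 2, the only shScramble library of that time, 0h dropped out and the average over 24h and 7d was 0.28. The average over all times fell to 0.39 without shScramble 7d sample 1. It rose to 0.78 without shScramble 7d sample 2 and to 0.61 without shScramble 24h sample 2. It was 0.34 with the replicate block, and no such setting passed the adjusted threshold. Each hairpin alone differed from shScramble by 0.61 ± 0.26 (shRcor2-18) and 0.48 ± 0.26 (shRcor2-20) in Zbtb20 (edgeR adjusted p = 0.860 and 0.892). The hairpins differed from each other by -0.12 ± 0.25 in Zbtb20, shRcor2-20 minus shRcor2-18, with a 95% interval of -0.70 to 0.46. For Runx1 and Nrip1 that difference was 0.15 ± 0.21 and 0.16 ± 0.16. The change from 24h to 7d was not found to differ between the constructs (edgeR quasi-likelihood test of the 3 changes at once, adjusted p = 1.00 for each gene).

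Libraries from different constructs ran in pairs. Over 336 well-covered genes of the chromosome 16 stretch, the nearest library of the same time was one of another construct for 12 of 12 libraries at 24h and 7d, and the partner was the same at both times. Pair A joined shScramble sample 1 and shRcor2-18 sample 1. Pair B joined shScramble sample 2 and shRcor2-20 sample 1, and pair C joined sample 2 of both hairpins. The labels do not mention such pairs, and what they share is not given in the sources used here. Partners correlated at 0.991 to 0.995, and both samples of a construct at 0.962 to 0.979. Comparisons of constructs therefore set libraries against their own nearest neighbours, and the 6 libraries of a time may hold fewer than 6 independent cultures. Whether construct labels were exchanged or cultures shared was not tested and cannot be told from the labels. All comparisons of hairpins with shScramble take the labels as given. With a block for the pairs, which was fitted to the 12 libraries of 24h and 7d, the log2 difference between hairpins and shScramble was 0.03 ± 0.11 (SE) for Runx1, 0.09 ± 0.11 for Nrip1 and 0.29 ± 0.20 for Zbtb20 (edgeR adjusted p = 1.00 for each).

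Runx1 followed the pairs closely. Its mean was 60.7 CPM in pair A, 82.0 CPM in pair B and 86.8 CPM in pair C at 24h, and 33.0, 59.6 and 49.8 CPM at 7d, so pair A was lowest at both times. Partners differed by a log2 size of 0.04 to 0.13 (median 0.11), while both samples of a construct differed by 0.06 to 0.85 (median 0.45). Nrip1 did likewise to a lesser degree, with medians of 0.10 within pairs and 0.32 within constructs. It rose from pair A through B to C at both times, from 63.2 to 81.9 CPM at 24h and from 61.3 to 92.3 CPM at 7d. Zbtb20 did not, with medians of 0.47 within pairs and 0.42 within constructs. At 24h the partners of pair A stood at 25.4 and 44.9 CPM, and those of pair C at 42.4 and 24.0 CPM. In both cases the shRcor2-18 library was the higher. Runx1, Nrip1 and Zbtb20 are all among the genes from which nearness was measured, so these values are descriptions.

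**Figure D3:**
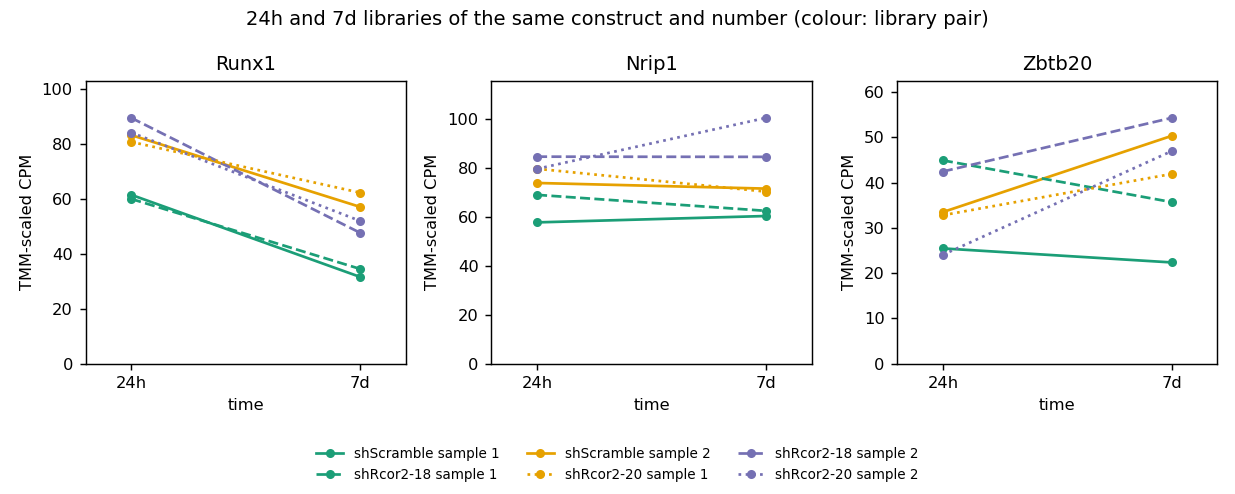
Levels (TMM-scaled CPM, axes from 0) at 24h and 7d of libraries with the same construct and number, joined by lines, with colour for the library pair and line style for the construct. All 6 Runx1 lines go down and partners of 1 colour lie close together, whereas the Zbtb20 partners of pairs A and C at 24h lie as far apart as 25.4 and 44.9 CPM.

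The genes whose levels ran most like Runx1 over the 15 libraries, among 335 others of the stretch, were Phldb2 (Pearson r = 0.97), which encodes a protein anchoring microtubules at the cell cortex, Abcc1 (0.95), a drug and glutathione conjugate exporter, and Etv5 (0.93), an ETS factor downstream of growth factor signalling. Phldb2 averaged 542, 310 and 184 CPM at 0h, 24h and 7d. The least alike was Adcy9, an adenylate cyclase (r = -0.89), at 39.5, 72.3 and 111 CPM. The libraries share times and pairs, no correlation within a time was computed, and these values carry no test.

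Nrip1 ran most like Snai2, the repressor SLUG of mesenchymal cells (r = 0.88), Yeats2, a subunit of a histone acetyltransferase complex (0.87), and Spice1, a centriole protein (0.87). It was least like Fbxo40, an F-box protein (r = -0.91), which averaged 7.84, 44.2 and 41.1 CPM at the 3 times. Snai2 averaged 228, 146 and 131 CPM. Zbtb20 ran most like Lpp, a focal adhesion protein (r = 0.85), Pros1, the anticoagulant protein S (0.76), and Crebbp, a histone acetyltransferase (0.74), and least like Gnb1l, a WD repeat protein (-0.72). Among the 3 genes themselves, r was 0.67 between Runx1 and Nrip1, 0.43 between Nrip1 and Zbtb20, and 0.01 between Runx1 and Zbtb20 (n = 15 libraries that share times and pairs).

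Other transcription regulators of chromosome 16 give the setting for these values. Of 27 DNA-binding factors, Runx1 and Zbtb20 among them, 20 were tested. At 24h against 0h, 1 rose and 2 fell, where 1.86% of all rows were called, and the median log2 change was -0.09 against 0.06 over all rows. Of the 373 genes of the stretch tested, 5 rose and 4 fell there. At 7d against 0h, 1 factor rose and 3 fell, where 5.76% of all rows were called, and the median was 0.02 against 0.07 over all rows. Of the 373 genes of the stretch, 23 rose and 19 fell there. Runx1 was 1 of the 3 factors that fell. The others were Hes1, the Notch target and repressor, from 25.4 CPM at 0h to 3.37 CPM at 7d (log2 -2.92 ± 0.36; edgeR adjusted p = 0.00347), and Etv5, from 91.5 to 30.3 CPM (log2 -1.59 ± 0.16; edgeR adjusted p = 0.00143). Cebpd, a C/EBP factor induced by glucocorticoids, was the 1 that rose, from 66.8 to 170 CPM (log2 1.33 ± 0.14; edgeR adjusted p = 0.00170).

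These 3 factors had already changed at 24h, Hes1 by -3.48 ± 0.37, Etv5 by -0.89 ± 0.16 and Cebpd by 1.36 ± 0.14 (edgeR adjusted p = 0.00334, 0.0356 and 0.00306). From 24h to 7d 1 of the 20 fell, Etv5, by a log2 change of -0.71 ± 0.14 (edgeR adjusted p = 0.0419), where 2.34% of all rows were called, and the median was 0.08 against -0.02 over all rows. Of the 373 genes of the stretch, 11 rose and 8 fell in that comparison. That change of Etv5 and the Runx1 change of -0.70 ± 0.19 were of like size, and the second had the larger error. No factor was called between hairpins and shScramble. There 1 of the 20, Zbtb20, had an unadjusted p under 0.05 (edgeR), and the median was -0.01 against 0.00 over all rows.

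Of 18 coregulators and general transcription proteins on the chromosome, Nrip1 among them, 17 were tested. N6amt1, a methyltransferase that modifies a translation release factor, rose at 24h (log2 0.82 ± 0.16; edgeR adjusted p = 0.0432) and at 7d against 0h (1.08 ± 0.16; edgeR adjusted p = 0.00734). Nfkbiz, an inducible IkB protein of the nucleus, fell at 7d against 0h (-0.90 ± 0.18; edgeR adjusted p = 0.0235). Over all rows, 1.86% and 5.76% were called in the 2 comparisons with 0h, and of the 373 stretch genes 5 and 23 rose and 4 and 19 fell. The medians of this list there were 0.04 and -0.07, against 0.06 and 0.07 over all rows. From 24h to 7d and between hairpins and shScramble none of the 17 was called by edgeR, and 5 and 0 of them had an unadjusted p under 0.05. Over all 12930 rows, 302 and 1 were called in these comparisons, and 2308 and 839 had an unadjusted p under 0.05. The medians of the list were 0.07 and 0.02, against -0.02 and 0.00 over all rows. A further list of 27 partners and relatives, such as Runx2, Cbfb, Ctbp1 and Nr3c1, had 0 rows in the readable stretch and gave no values.

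**Figure D4:**
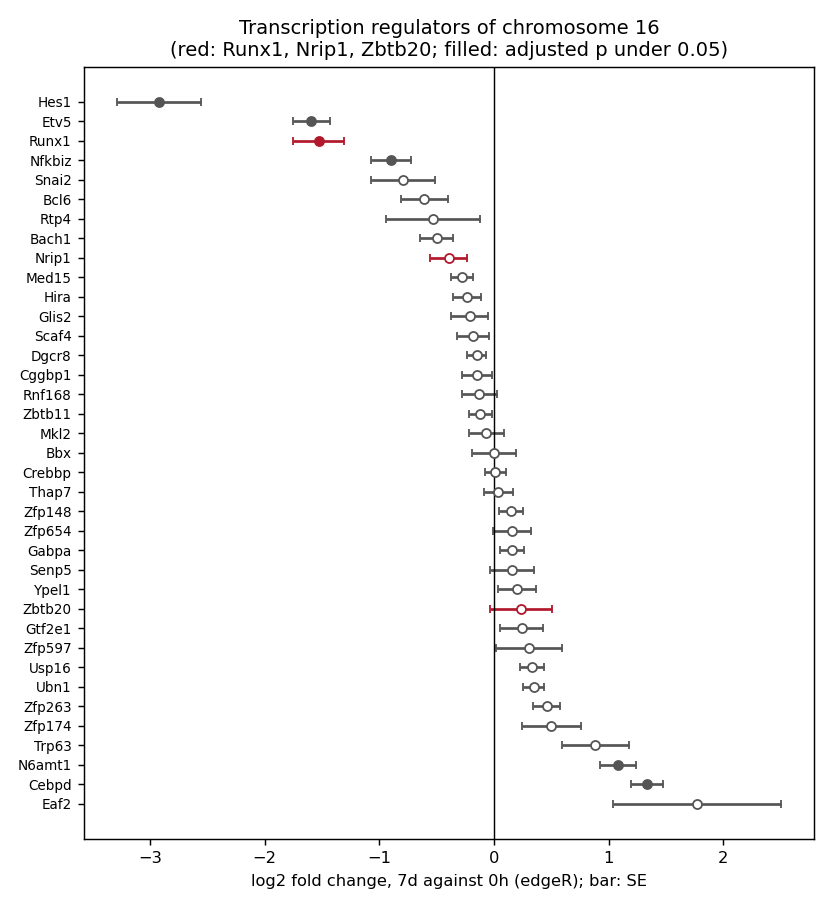
Log2 fold changes at 7d against 0h (horizontal axis, SE as bars) of the 37 transcription regulators of chromosome 16 tested, ordered by size, with Runx1, Nrip1 and Zbtb20 in red and filled points where the edgeR adjusted p was under 0.05. Runx1, at -1.53, stands below all but Hes1 and Etv5, and Nrip1 and Zbtb20 stand among the open points at -0.40 and 0.23.

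Other rows overlap Runx1 and Zbtb20. Gm26626, antisense within Runx1, averaged 3.20 CPM. Within Zbtb20 and on its strand, the pseudogene BC002163 averaged 78.1 CPM, Gm15711 2.95 CPM and Mir568 1.76 CPM. The antisense Gm9968 averaged 1.57 CPM. Counting by strand would not by itself separate rows of the same strand from the gene. Whether it was done is not given in the sources used here. Reads of these rows and of the genes may not be fully separated, and the values of Zbtb20 are uncertain to that extent. Nrip1 had no overlapping row.

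Markers of other cell types were examined beside the genes, since Runx1 is prominent in blood cells. Of 11 lymphoid and myeloid markers, Cd86, Cd200r1 and Trat1 had 0 counts in the 15 libraries, and Cd80, a costimulatory ligand, and Btla, a lymphocyte receptor, averaged 187 and 21.0 CPM. The summed level of the 11 was 162 to 208 CPM at 0h, 175 to 204 CPM at 24h and 209 to 298 CPM at 7d. Nearly all of it was Cd80 and Btla, and Btla ran from 1.54 to 65.9 CPM between libraries. Whether blood cells had a part in this sum or in the Runx1 results was not tested. Of 7 neural and glial markers the sum reached at most 3.17 CPM, with Olig1, Olig2, Ncam2 and Drd3 at 0 counts. Adipoq, the adipocyte marker, reached at most 0.647 CPM, Cldn5, endothelial, had 0 counts, and Myh11, of smooth muscle, ran from 3.11 to 9.25 CPM. The 4 hepatocyte markers summed to between 5.35 and 34.8 CPM, nearly all of it Fetub. All 9 osteoblast markers lie on other chromosomes, outside the readable stretch, so the cell type label could not be checked.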

How the data were processed

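Raw counts per gene for 18 libraries, whole numbers in 1 table, were deposited by the authors. The tools named are FastQC, TopHat2 2.0.9, DESeq and DESeq2, and the build is mm9, per the submitters' processing notes. How reads were counted, by strand or not and on which annotation, is not given in the sources used here. Gene identifiers of the GRCm38 period meet an mm9 alignment, and names were read as genes only in the chromosome 16 stretch. The genes, lists and stretch were chosen with earlier results of these data known.

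From the deposited counts, edgeR 4.0.16 in R 4.3.3 was run with filterByExpr over 9 groups, TMM, robust dispersions and the quasi-likelihood test, on 15 libraries and 12930 rows with 6 residual degrees of freedom. Time comparisons average over the 3 constructs. Benjamini-Hochberg adjustment covered all rows, with a threshold of 0.05. Where a group has 1 library, it is assumed to vary like the others. SE is the log2 change over the square root of F. The test was tried on simulated data with independent libraries, so that trial does not cover the library pairs found here. Alternatives were other scalings, filters and dispersions, all 18 libraries, the stretch alone, blocks, DESeq2 1.42.0 and leaving out each library. Without its single library a 0h group dropped out, and comparisons that use it averaged over the constructs or times that remained. Deviations of same-number libraries at 24h and 7d correlated at 0.45, 0.56 and 0.55 for shScramble, shRcor2-18 and shRcor2-20 over 336 genes, so the number within a construct served as the replicate block. This pairing comes from the values, not the labels. At 0h the block uses sample 2 alone.

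Named genes were the 3 genes, their neighbours, for each the 3 most and the 1 least alike of the stretch whose mean log2 CPM was 3 or more, list members past the threshold (up to 4 per direction), and markers.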

Additional observations from a re-analysis of the deposited data

Results flagged for a closer look

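Sample 1 of each construct at 0h was left out of the comparisons, and all 3 genes were higher in those libraries than in the 0h libraries that were kept. Scaled over all 18 libraries, Runx1 averaged 280.5 CPM in the 3 left-out libraries (248 to 312 CPM), which was 2.09 times the 134 CPM of the kept 0h libraries. Nrip1 averaged 189 CPM (166 to 209 CPM), 1.95 times the 97.2 CPM of the kept ones. Zbtb20 averaged 111 CPM (70.3 to 145 CPM), 2.98 times the 37.2 CPM of the kept ones. For each gene, every left-out library lay above every kept 0h library, and how many other rows did so was not counted. The whole chromosome 16 stretch took 11.7% to 12.5% of the counts of those libraries, against 6.95% to 7.79% in the 15 used, and its part in the higher levels was not tested. They also had fewer rows with a count, 11942 to 14355 against 16555 to 18277, and correlated with each other at 0.988 or more.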

How the results depend on the processing

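The fall of Runx1 from 0h to 7d passed the threshold in all 25 alternatives, with log2 changes from -2.14 (all 18 libraries) to -1.37 and an edgeR or DESeq2 adjusted p of at most 0.0376. With the replicate block it was -1.38, and the steps were -0.66 to 24h and -0.71 from 24h to 7d. The step to 24h passed with all 18 libraries (-1.45), the stretch alone (-0.83) and DESeq2 (-0.84). The step from 24h to 7d passed with the stretch alone (-0.77), the library-pair block (-0.70) and DESeq2 (-0.69). Nrip1 at 7d against 0h passed with all 18 libraries (-0.94, edgeR adjusted p = 0.0482). The replicate block changed no call on the 3 genes.

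Signs also turned, for no difference that had passed the threshold. Nrip1 at 7d against 24h was -0.034 by library size and -0.042 in the stretch alone, and -0.079 to 0.092 with a library left out. Zbtb20 was 0.055 at 24h against 0h with the replicate block and -0.37 to 0.26 with a library left out. At 7d against 0h it was -0.80 with all 18 libraries and -0.024 to 0.44 with a library left out. With the replicate block, Runx1 differed between hairpins and shScramble by -0.0021 over all times, -0.097 at 24h and -0.041 at 7d, between shRcor2-20 and shScramble by -0.024, and between the hairpins by -0.044. Zbtb20 between hairpins and shScramble at 24h was -0.099 with that block, and shRcor2-20 against shScramble, 0.48 in the comparison reported, was -0.034 with the library-pair block. With a library left out, Runx1 between hairpins and shScramble ran from -0.085 to 0.34 at 24h and -0.24 to 0.62 at 7d, shRcor2-18 against shScramble from -0.069 to 0.22, and Zbtb20 between hairpins and shScramble at 7d from -0.17 to 1.00.

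Counts of rows called moved more. For 24h against 0h they were 56 with the replicate block, 582 with DESeq2 and 126 to 231 with a library left out, against 240. For 7d against 0h they were 432, 1427 and 310 to 762, against 745. For 7d against 24h they were 169, 1100 and 120 to 307, against 302, and 38 with all 18 libraries, 489 with those and a term for sample 1 at 0h, and 595 with the library-pair block. For hairpins against shScramble, where 1 row was called, they were 8 by library size, 20 without a filter, 8 among rows of at least 20 CPM, 12 without robust dispersions, 0 with all 18 libraries, 4 with the added term, 0 with the replicate block, 109 with DESeq2 and 0 to 14 with a library left out. The cause of these shifts was not tested. With 1 library per construct at 0h, differences within a construct rest on single libraries. For Zbtb20, counting error was smaller than the spread between libraries of a time.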
